A study of Mus musculus with 6 samples.

Results

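The genes described here are 10 components of the hypoxia-inducible factor (HIF) pathway in the embryonic mouse cortex, chosen from 17348 genes in the deposited table. They are the oxygen-regulated alpha subunits Hif1a, Epas1 and Hif3a, the beta subunits Arnt and Arnt2, the prolyl hydroxylases Egln1 and Egln3, the ubiquitin ligase subunit Vhl, and the HIF target genes Vegfa and Bnip3. Hif3a was included because it had been seen to be higher after deletion of Ybx1 in these same libraries, so its genotype difference is given as a description with no test, whereas the other 9 genes were chosen by their role. RNA-seq was performed on cortex at embryonic stage E13.5 from 3 Ybx1 conditional knockout (cKO) and 3 control samples, labelled WT. In the study's methods the cKO embryos carry Nestin-Cre and Ybx1 fl/fl alleles on a C57BL/6J background, and the controls are littermates. The controls are called wild type in the sequencing methods and Ybx1 fl/fl elsewhere, and the labels give the control samples as WT. Nestin-Cre acts in neural progenitors and their progeny, so the deletion is directed at neural cells of the dissected cortex and not at its blood vessels, meninges or blood cells. Ybx1 encodes a protein that binds RNA, including RNA that carries methylated cytosine, and in sarcoma cells it is known to promote the translation of HIF1A mRNA. The sex of the embryos, and whether a sample pooled several, are not given in the sources used here.

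Oxygen sets the amount of HIF mainly through protein stability. When oxygen is plentiful, prolyl hydroxylases modify the alpha subunit, VHL recognises the modified protein, and the proteasome degrades it. When oxygen falls, the alpha subunit persists, pairs with ARNT or ARNT2 and binds hypoxia response elements in genes for glycolysis, blood vessel growth and mitochondrial turnover. HIF3A differs from its relatives, since some of its splice forms restrain the other alpha subunits, and EGLN3, VEGFA and BNIP3 are themselves HIF targets. The measurements below are of RNA, and say nothing of HIF protein.

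The 6 libraries held between 15907491 and 16282929 estimated counts, and between 15677 and 16296 genes were detected in each. Values are given as CPM, counts scaled to a common library size with TMM factors. The limit of 1 library for a count of 0 (3 counts) corresponds, before those factors are applied, to between 0.184 and 0.189 CPM. That limit covers counting error only. All 10 genes passed the filter on low counts, as did 13340 of the 17348 genes in the table. Ybx1 itself stood at 1021, 527 and 1219 CPM in the WT libraries and at 83.0, 117 and 147 CPM in the cKO libraries. WT replicate 2 thus held the lowest Ybx1 level of the WT libraries, though well above every cKO library. The log2 fold change of Ybx1 was -3.00 ± 0.33 (SE), with an adjusted p of 0.128 in edgeR's quasi-likelihood test (Benjamini-Hochberg over all genes tested). cKO replicate 3 stood apart by its epidermis and fibroblast markers, which are given with Hif3a. No gene of the 13340 passed an adjusted p of 0.05 in this test (0.0% higher and 0.0% lower in cKO), while an unadjusted p under 0.05 was reached by 234 genes (1.75%) with a higher level in cKO and by 242 (1.81%) with a lower one. DESeq2 called 5 genes, none of which belongs to the HIF pathway. The study itself reported genes called in both directions for this comparison. Its sequencing methods do not name the test, so those calls and the ones here are not like for like. The values of WT replicate 2 and cKO replicate 3 enter every result below, and some of the values are also given without them.

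The promoters of Hif3a, Egln1 and Bnip3 are printed here because these genes include the one that was chosen for its difference, the other one whose libraries separated by genotype, and a classical HIF target. Each runs from 250 bases before to 50 bases after a RefSeq start on GRCm38.p6, 5′ to 3′ on the gene's strand. Capitals mark the HIF core motif, searched as ACGTG and GCGTG on both strands, so that on the printed strand it can also appear as its reverse complement. Where a match on each strand overlaps, as happens once in Bnip3, both are counted. All 3 genes lie on the minus strand, with the windows at chr7:17062378-17062677 for Hif3a, chr8:124949205-124949504 for Egln1 and chr7:138909457-138909756 for Bnip3.
Hif3a: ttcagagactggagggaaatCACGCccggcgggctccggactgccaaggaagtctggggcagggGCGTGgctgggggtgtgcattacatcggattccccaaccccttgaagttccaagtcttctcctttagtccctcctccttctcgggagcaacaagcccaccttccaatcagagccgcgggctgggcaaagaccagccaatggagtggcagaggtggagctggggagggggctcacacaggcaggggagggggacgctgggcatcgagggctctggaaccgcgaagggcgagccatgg
Egln1: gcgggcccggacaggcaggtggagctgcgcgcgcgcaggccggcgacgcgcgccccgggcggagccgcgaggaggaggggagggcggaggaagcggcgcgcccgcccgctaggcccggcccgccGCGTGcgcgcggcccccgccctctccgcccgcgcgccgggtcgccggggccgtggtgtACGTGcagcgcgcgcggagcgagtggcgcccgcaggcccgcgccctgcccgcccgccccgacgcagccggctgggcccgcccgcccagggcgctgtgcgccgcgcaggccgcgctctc
Bnip3: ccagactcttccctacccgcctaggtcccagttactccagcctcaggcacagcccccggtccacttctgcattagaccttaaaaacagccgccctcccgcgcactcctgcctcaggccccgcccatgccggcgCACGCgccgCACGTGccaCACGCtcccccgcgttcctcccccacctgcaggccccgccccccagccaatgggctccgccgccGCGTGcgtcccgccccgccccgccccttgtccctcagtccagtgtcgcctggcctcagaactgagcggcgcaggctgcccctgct

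The Hif3a window held 2 matches, beginning 230 and 186 bases before the start. The Egln1 window also held 2, at 126 and 68 bases before the start. The Bnip3 window held 5 matches, between 117 and 35 bases before the start. The 9 genes with a RefSeq window had 10 windows, of which 7 (70.0%) held at least 1 match. Arnt2 and Vhl held none, as did the window at the gene start of Vegfa, whose other window held 2, and no window was tabled for Epas1. Among promoters of the same length, 43.77% of 32851 held a match, as did 61.12% of the 13701 windows of genes tested. A match shows only that these letters are present, and was not tested as a binding site. The window of Hif1a, at chr12:73907617-73907916, lies at a start inside the gene, as do that of Arnt2, at chr7:84409989-84410288, and the matching window of Vegfa, at chr17:46025114-46025413.

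Among the alpha subunits, Hif1a RNA was abundant and overlapped between the genotypes, whereas Hif3a RNA was higher in every cKO library than in any WT library. Hif3a, on chromosome 7 from 17030993 to 17062427, stood at 49.8, 49.9 and 45.2 CPM in the WT libraries and at 64.5, 68.9 and 60.5 CPM in the cKO libraries. These values rest on between 724 and 1100 counts per library. The mean was 48.3 ± 2.67 CPM in WT and 64.7 ± 4.21 CPM in cKO (SD, n = 3 libraries each), 33.9% above WT, with a log2 fold change of 0.42 ± 0.08 (SE). The lowest cKO library, replicate 3, remained above the highest WT library, and the groups did not overlap. In bulk tissue, more cells of a type that carries the RNA cannot be told apart from more RNA per cell. Across the table, 562 genes (4.21%) had all 3 cKO libraries above all 3 WT libraries, and 551 (4.13%) had a log2 fold change at least as large as that of Hif3a. Nothing is read from these shares for Hif3a, since it was chosen on this difference. Without WT replicate 2 and cKO replicate 3 its log2 fold change was 0.49. Those were the highest WT and the lowest cKO library for Hif3a, so leaving them out had to raise that value. The log2 fold change ranged from 0.37 to 0.49 over 14 alternatives. These included fits with libraries left out and a fit on TPM. The range is likewise only a description of a gene chosen on this difference.

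Hif1a, the widely expressed alpha subunit, stood at 237, 245 and 252 CPM in the WT libraries and at 222, 256 and 229 CPM in the cKO libraries. The groups overlapped, since cKO replicate 2 held the highest value of all 6. Its log2 fold change of -0.05 ± 0.08 (SE) was smaller than its standard error. Epas1, which encodes HIF-2 alpha and is known for its expression in endothelium, stood at 17.4, 12.9 and 12.9 CPM in the WT libraries and at 11.1, 13.6 and 14.8 CPM in the cKO libraries. WT replicate 1 was highest, and the remaining WT libraries lay among the cKO ones. Its log2 fold change was -0.13 ± 0.16 (SE), and -0.30 without WT replicate 2 and cKO replicate 3.

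Levels of different genes can be compared only per transcript length, in TPM, the deposited values that are scaled by length and library. By that measure Hif1a made up 85.1% ± 1.36 (SD, n = 3) of the summed alpha subunit TPM in WT and 81.8% ± 0.395 in cKO. Hif3a made up 10.7% ± 0.690 in WT and 14.4% ± 0.766 in cKO, with library values from 9.946% to 11.24% and from 13.69% to 15.19%. Epas1 made up 4.20% ± 0.812 and 3.82% ± 0.50. The summed TPM of the 3 genes was close in the genotypes, at 142 ± 4.81 in WT and 143 ± 5.15 in cKO, a difference smaller than the spread between libraries. Because the shares add to 100% and Hif3a was chosen for its difference, the lower share of Hif1a is not a separate observation.

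**Figure D1:**
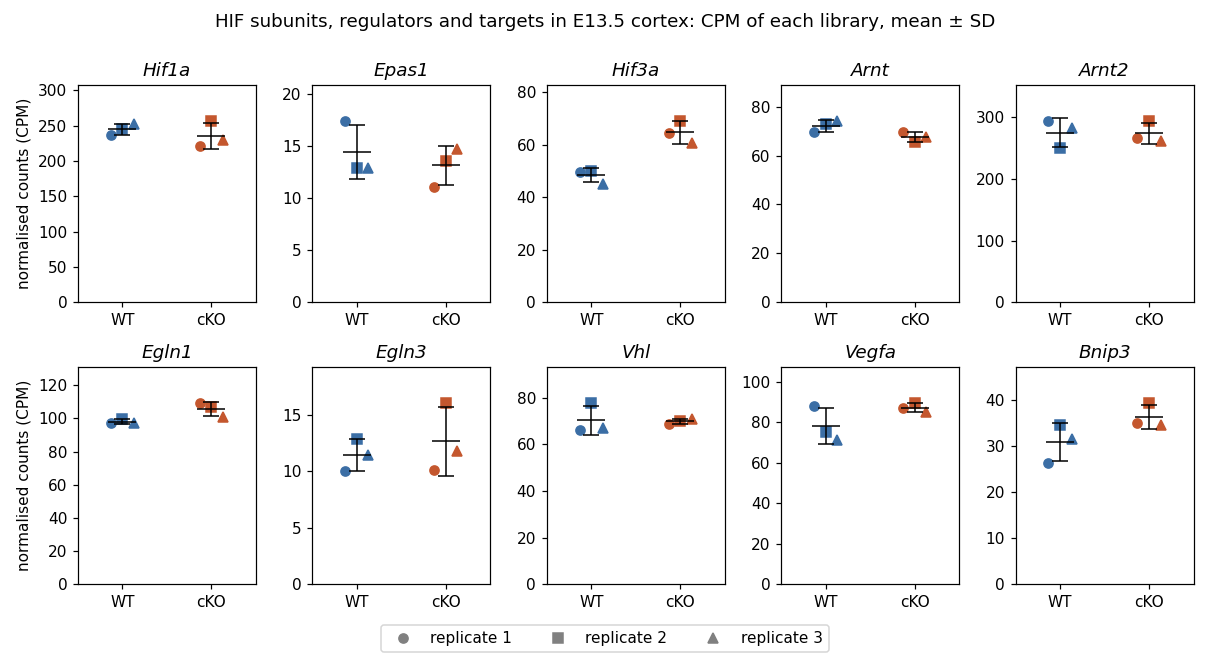
Normalised counts (CPM) of the 10 genes in each library, with each panel's axis starting at 0; colours give the genotype, symbols the replicate number, and black bars the mean ± SD of 3 libraries. Hif3a and Egln1 are the genes whose 3 cKO libraries all lie above the 3 WT libraries, from 60.5 against at most 49.9 CPM for Hif3a and from 101 against at most 99.7 CPM for Egln1.

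The beta subunits, with which every alpha subunit must pair to bind DNA, did not pass the test. Arnt, the broadly expressed partner, stood at 69.4, 73.0 and 74.0 CPM in the WT libraries and at 69.8, 65.5 and 67.5 CPM in the cKO libraries. Its groups overlapped only through WT replicate 1 and cKO replicate 1, which lay within 1 CPM of each other. The log2 fold change was -0.09 ± 0.06 (SE). Arnt2, the partner that is enriched in neurons, stood at 293, 249 and 282 CPM in the WT libraries and at 266, 293 and 261 CPM in the cKO libraries, with interleaved groups and a log2 fold change of -0.01 ± 0.09 (SE). The sign of that value turned under another scaling and with single libraries left out. In TPM, Arnt2 made up 73.0% ± 2.10 (SD, n = 3) of the beta subunit sum in WT and 74.2% ± 1.65 in cKO, so it was the larger part in both genotypes.

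Of the enzymes that mark the alpha subunits for destruction, Egln1, the main oxygen sensor of the family, was slightly higher in the cKO libraries but did not pass the test. Egln1, on chromosome 8 from 124908587 to 124949254, stood at 97.2, 99.7 and 97.0 CPM in the WT libraries and at 109, 107 and 101 CPM in the cKO libraries. The groups did not overlap, as for 4.21% of all genes in this direction, and the gap between the nearest libraries was small. Its log2 fold change was 0.11 ± 0.06 (SE), with an unadjusted p of 0.118 and an adjusted p of 0.99998 (edgeR's quasi-likelihood test). Egln3, an oxygen sensor that HIF itself induces, was low, at 9.98, 12.8 and 11.4 CPM in the WT libraries and at 10.1, 15.98 and 11.8 CPM in the cKO libraries. cKO replicate 2 stood highest, and without it the log2 fold change of 0.15 ± 0.18 (SE) became -0.06. It was 0.28 without WT replicate 2 and cKO replicate 3. Egln2, the remaining prolyl hydroxylase, supplied a share of the family's summed TPM close to that of Egln1, 46.4% ± 1.11 (SD, n = 3) in WT and 45.1% ± 0.986 in cKO. Egln3 supplied 7.27% ± 0.849 and 7.61% ± 1.55.

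Vhl, which encodes the part of the ubiquitin ligase that recognises hydroxylated HIF, stood at 66.2, 77.5 and 67.2 CPM in the WT libraries and at 68.7, 69.8 and 70.9 CPM in the cKO libraries. The cKO libraries lay inside the WT range, and the log2 fold change was -0.01 ± 0.08 (SE).

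Both target genes had higher means in cKO without passing the test. Vegfa, the principal growth factor for blood vessels entering the cortex, stood at 88.2, 75.3 and 71.4 CPM in the WT libraries and at 87.2, 89.4 and 85.1 CPM in the cKO libraries. WT replicate 1 lay within the cKO range, and the other WT libraries lay below it. The log2 fold change was 0.16 ± 0.09 (SE), with an unadjusted p of 0.113 and an adjusted p of 0.99998 (edgeR's quasi-likelihood test). It was 0.25 without WT replicate 1 and 0.093 without WT replicate 3. Bnip3, a mitochondrial protein that promotes the removal of mitochondria by autophagy, stood at 26.4, 34.5 and 31.5 CPM in the WT libraries and at 35.0, 39.2 and 34.5 CPM in the cKO libraries. The groups met at WT replicate 2 and cKO replicate 3, both at 34.5 CPM. Its log2 fold change was 0.24 ± 0.12 (SE), the largest of the 9 genes chosen by role, with an unadjusted p of 0.0768 and an adjusted p of 0.99998 (edgeR's quasi-likelihood test). Without WT replicate 2 and cKO replicate 3, the libraries that met, it was 0.36, and without WT replicate 1 it was 0.14.

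None of the 9 genes chosen by role was called, and each had an adjusted p of 0.99998 in edgeR's quasi-likelihood test. That test called no gene at all, not even the deleted Ybx1 at a log2 fold change of -3.00. Not passing it therefore does not show that a gene was unchanged. None of the 9 reached an unadjusted p under 0.05, beside 1.75% higher and 1.81% lower over all genes tested. Of these 9 genes, 4 had a log2 fold change above 0, with a median of -0.007, beside 50.78% of all genes tested and a median of 0.002. These p-values measure the spread between samples that the study describes as 3 independent replicate experiments.

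The spread between libraries differed among the genes. The coefficient of variation of CPM was lowest in Egln1 for WT, at 1.54%, and in Vhl for cKO, at 1.56%. It was highest in Epas1 for WT, at 17.8%, and in Egln3 for cKO, at 24.0%. Bnip3 varied by 13.4% in WT and 7.11% in cKO. For Hif3a it was 5.53% in WT and 6.52% in cKO.

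**Figure D2:**
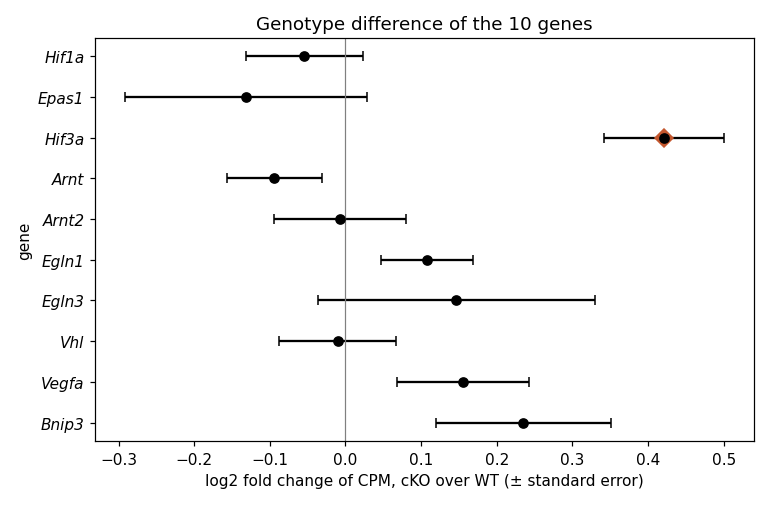
Log2 fold change of CPM, cKO over WT, for the 10 genes, with bars for the standard error; the coloured diamond is Hif3a, which was chosen for its difference. Hif3a lies at 0.42, the other 9 genes between -0.13 for Epas1 and 0.24 for Bnip3.

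Ordered by mean TPM over the 6 libraries, Hif1a was highest at 119 (range 113.81 to 123.43), followed by Arnt2 at 101 (88.21 to 113.31). Egln1 at 66.3, Vegfa at 61.4 and Vhl at 59.4 came next, and the ranges of neighbours among these 3 overlapped. Bnip3 followed at 47.7, Arnt at 36.0, Hif3a at 17.9 (14.07 to 21.24), Egln3 at 10.5 and Epas1 at 5.74. Neighbours in the order outside those 3 did not overlap, so that Hif3a kept the same rank in all 6 libraries, below Arnt and above Egln3, despite its difference between genotypes.

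**Figure D3:**
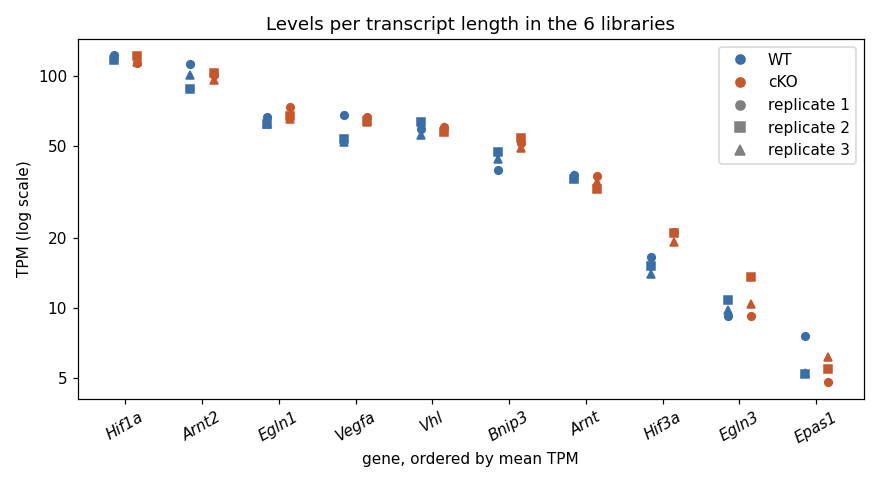
TPM of the 10 genes in the 6 libraries on a log axis, ordered by mean TPM; colours give the genotype and symbols the replicate number. Hif1a lies highest, with a mean of 119, and Epas1 lowest, with a mean of 5.74, and only the ranges of Egln1, Vegfa and Vhl overlap their neighbours in this order.

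The genes whose CPM followed that of Hif3a most closely over the 6 libraries, among 13339 other genes, were Sdhaf4, Acp6, Pex14, Dnah1 and Tmem223. Pearson's r on the log2 scale was 0.985 for Sdhaf4, 0.984 for Acp6, 0.983 for Pex14, 0.982 for Dnah1 and 0.978 for Tmem223. Sdhaf4 assists the assembly of mitochondrial succinate dehydrogenase, Pex14 takes part in peroxisomal protein import, and Dnah1 is an axonemal dynein heavy chain. With 6 libraries and the genotype difference shared by all points, these values describe likeness only.

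The other genes of the pathway were examined as lists. In the machinery that degrades, hydroxylates or assists HIF, 0 of 11 genes reached an unadjusted p under 0.05 in either direction. Over all genes tested 1.75% reached it with a higher level in cKO and 1.81% with a lower one, so 0 of 11 is near those shares. In this list 5 had a log2 fold change above 0 and the median was -0.003, beside 50.78% and 0.002 over all genes tested. Elob, Eloc and Rbx1, which form the ligase with Vhl, had log2 fold changes of -0.06 ± 0.10, 0.02 ± 0.09 and -0.07 ± 0.06 (SE). The coactivators Crebbp and Ep300 lay at -0.15 ± 0.08 and -0.08 ± 0.09, and Cited2, which competes with HIF for those coactivators and is itself a HIF target, at 0.17 ± 0.16. These were small differences, with all groups overlapping.

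Arnt also pairs with other proteins of its family, named bHLH-PAS after their shared domains. Of 7 such partners, 5 passed the filter and 0 reached an unadjusted p under 0.05, beside 1.75% higher and 1.81% lower over all genes tested. The median log2 fold change of the 5 was -0.19, beside 0.002 over all genes tested, and it became 0.074 without cKO replicate 1. Ahr, the receptor for dioxin and related ligands, stood between 1.06 and 1.32 CPM in 5 libraries and at 5.61 CPM in cKO replicate 3, so its log2 fold change of 1.22 ± 0.62 (SE) rested on that library and was 0.05 without it. Ahrr, its repressor, lay at -0.19 ± 0.26, and the brain factors Npas1, Npas3 and Npas4 lay at -0.52 ± 0.45, 0.02 ± 0.15 and -0.20 ± 0.25. Sim1 and Sim2 did not pass the filter.

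For genes that HIF is known to induce in glycolysis, 14 of 19 (73.68%) had a log2 fold change above 0 and the median was 0.11, beside 50.78% and 0.002 over all genes tested. That median ranged from 0.033 without cKO replicate 2 to 0.21 without cKO replicate 1. None of the 19 reached an unadjusted p under 0.05, beside 1.75% higher and 1.81% lower over all genes tested. In none did the groups separate, beside 4.21% upward and 4.83% downward over all genes tested. The glucose transporter Slc2a1 stood at 93.3, 73.1 and 78.4 CPM in the WT libraries and at 84.9, 86.5 and 115 CPM in the cKO libraries. Its highest value was in cKO replicate 3, and its log2 fold change of 0.22 ± 0.14 (SE) was -0.003 without WT replicate 2 and cKO replicate 3. The lactate exporter Slc16a3 lay at 0.46 ± 0.21 with an unadjusted p of 0.0601 and an adjusted p of 0.99998 (edgeR's quasi-likelihood test). The glycolytic enzymes Aldoa, Eno1, Gapdh and Pkm lay at 0.17 ± 0.09, 0.19 ± 0.11, 0.11 ± 0.15 and 0.03 ± 0.10.

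Of 30 other HIF targets 25 passed the filter. Of these, 20 (80.0%) had a log2 fold change above 0, with a median of 0.13, beside 50.78% and 0.002 over all genes tested. At an unadjusted p under 0.05, 1 was higher and 1 lower, beside 1.75% and 1.81% of all genes tested, and none was called after adjustment. P4ha2, a collagen prolyl hydroxylase, stood at 2.32, 2.29 and 2.19 CPM in the WT libraries and at 3.06, 2.70 and 3.92 CPM in the cKO libraries. The groups did not overlap, and cKO replicate 3 was highest, with a log2 fold change of 0.51 ± 0.21 (SE), an unadjusted p of 0.0455 and an adjusted p of 0.99998 (edgeR's quasi-likelihood test). Ak4, a mitochondrial adenylate kinase, went the other way, at 32.6, 29.4 and 31.7 CPM in the WT libraries and at 27.7, 25.1 and 27.9 CPM in the cKO libraries. Its log2 fold change was -0.21 ± 0.09 (SE), with an unadjusted p of 0.0401 and an adjusted p of 0.99998 (edgeR's quasi-likelihood test). In all, the groups separated upward for 3 of these 25 genes and downward for 2, beside 4.21% and 4.83% of all genes tested. Vldlr, the lipoprotein receptor through which reelin acts, was another gene that separated upward, at 0.22 ± 0.10 (SE). The remaining ones, Ero1a upward and Insig2 downward, lay at 0.11 ± 0.07 and -0.07 ± 0.08, and are named because their libraries separated. Car12, a carbonic anhydrase, lay at 0.46 ± 0.23, and at 0.19 without WT replicate 2 and cKO replicate 3. Fam162a lay at 0.24 ± 0.15, and at 0.13 without WT replicate 1 and 0.39 without WT replicate 2. Bnip3l and Kdm3a, a relative of Bnip3 and a histone demethylase, lay at -0.06 ± 0.09 and 0.03 ± 0.08. Epo, Edn1, Car9, Bhlhe41 and Lox did not pass the filter, and Lox, a collagen cross-linking enzyme, stood at 57.6 CPM in cKO replicate 3 and at or below 0.619 CPM in the other 5 libraries.

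The relatives and receptors of Vegfa showed no common direction. Among them 5 of 9 lay above 0, with a median log2 fold change of 0.01, beside 50.78% and 0.002 over all genes tested. That median became -0.13 without WT replicate 2 and cKO replicate 3. Nrp2, a coreceptor for VEGF and semaphorins, stood at 94.0, 82.0 and 80.9 CPM in the WT libraries and at 81.9, 65.9 and 68.7 CPM in the cKO libraries. Its groups overlapped through cKO replicate 1, with a log2 fold change of -0.25 ± 0.10 (SE), an unadjusted p of 0.0423 and an adjusted p of 0.99998 (edgeR's quasi-likelihood test). An unadjusted p under 0.05 with a lower level in cKO was reached by 1.81% of all genes tested. Vegfc separated upward at 0.19 ± 0.12 (SE), as did 4.21% of all genes tested, while Nrp1 lay at -0.15 ± 0.14 and Vegfb at -0.09 ± 0.12. Vegfd, between 0.251 and 1.45 CPM, was too low for its log2 fold change of 1.10 ± 0.52 to be read closely.

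**Figure D4:**
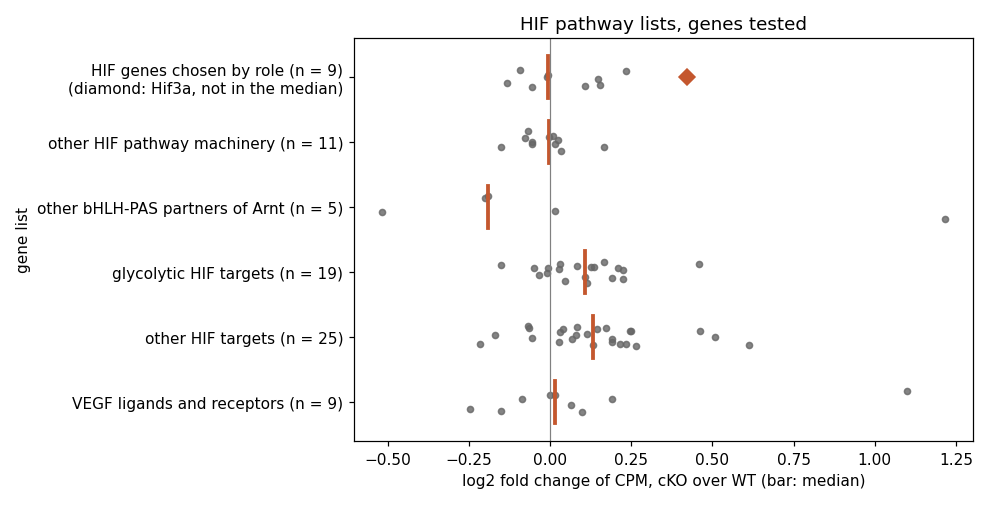
Log2 fold change of CPM, cKO over WT, of each tested gene (points, spread vertically for visibility) in the 9 HIF genes chosen by role and in 5 other lists of the HIF pathway; coloured bars are medians, and the diamond is Hif3a, which is left out of the median. The medians lie between -0.19 for the 5 partners of Arnt and 0.13 for the 25 other HIF targets, beside 0.002 over all genes tested.

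Marker lists of the cell types that a cortical dissection can hold were summed in each library. Endothelial markers summed to between 67.5 and 92.7 CPM in WT and between 75.9 and 99.3 CPM in cKO. Pericyte markers summed to between 167 and 207 and between 171 and 204 CPM, and the groups overlapped for both lists. Notch3 alone held between 106 and 139 CPM, so the pericyte sums mostly follow that gene. Log2 fold changes were above 0 for 10 of 12 endothelial and 4 of 7 pericyte markers, beside 50.78% of all genes tested. Radial glia, intermediate progenitor and cortical neuron markers also overlapped, reaching 2626, 1309 and 5788 CPM, so that the cell types of the labelled tissue were present. Interneuron markers did not overlap, at between 148 and 209 CPM in WT and between 218 and 240 CPM in cKO, with 7 of 8 tested markers at a log2 fold change above 0. Choroid plexus markers did not overlap either, but summed to at most 3.39 CPM, with Ttr, Kl and Folr1 at or near 0 in every library. The part of any of these cell types in the Hif3a difference was not tested.

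cKO replicate 3 held markers of skin and connective tissue. Its epidermis markers summed to 267 CPM beside between 1.25 and 2.37 CPM in the other libraries, and its meninges and fibroblast markers to 518 CPM beside between 8.36 and 17.0 CPM. In the latter list Col1a1, Col1a2, Col3a1, Dcn and Lum were raised, from 26.7 CPM for Dcn to 181 CPM for Col3a1. Foxc1, Foxd1 and Slc6a13 of the same list stayed within their WT ranges. Hif3a was lowest of the cKO libraries in cKO replicate 3, at 60.5 CPM, and its log2 fold change was 0.47 without that library. Slc2a1, Ahr, Lox, P4ha2, Car12, Vegfc and Vegfd were among the genes with their highest value in that library. The part of skin or connective tissue in any of these values was not tested. Erythroid markers, between 641 and 876 CPM in WT and between 689 and 1118 CPM in cKO, and microglial markers, between 20.5 and 32.8 and between 22.0 and 30.6 CPM, overlapped.

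**Figure D5:**
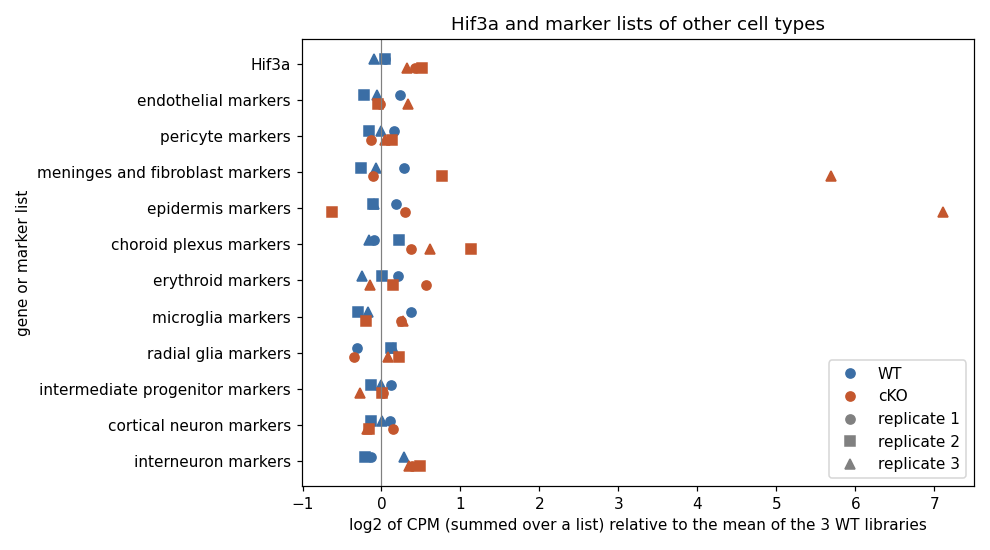
Log2 of CPM relative to the mean of the 3 WT libraries, for Hif3a and for the summed CPM of 11 marker lists; colours give the genotype and symbols the replicate number. Hif3a, interneuron and choroid plexus markers are the rows in which the cKO libraries lie above all WT libraries, and cKO replicate 3 stands far out in the epidermis list (267 CPM) and the meninges and fibroblast list (518 CPM).

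On GRCm38, Hif1a lies on chromosome 12 from 73901324 to 73947554, Epas1 on chromosome 17 from 86753864 to 86833410, Arnt on chromosome 3 from 95434367 to 95497240 and Vhl on chromosome 6 from 113623994 to 113631634, all on the plus strand. On the minus strand lie Arnt2 on chromosome 7 from 84246274 to 84411741, Egln3 on chromosome 12 from 54178981 to 54203874, Vegfa on chromosome 17 from 46016993 to 46032377 and Bnip3 on chromosome 7 from 138890836 to 138909506, as do Hif3a and Egln1, whose positions on the same build are given above. The annotation places other genes over parts of several of these loci, and whether the counting used strand is not stated in the sources used here. A gene of uncertain type, 4833404L02Rik, overlaps Hif3a on the opposite strand, and antisense genes overlap Hif1a, Arnt2 and Bnip3. A pseudogene, Gm18258, also overlaps Bnip3 on the opposite strand. On the same strand, the protein-coding Gm49321 overlaps Hif1a, and AC096777.1, of uncertain type, overlaps Epas1. The pseudogene Gm42672 overlaps Arnt and the snRNA gene Gm25790 overlaps Arnt2, also on the same strand. None of these overlapping genes has a row in the table, so it is not known whether their reads were counted for the HIF genes. No such gene overlaps Egln1, Egln3, Vhl or Vegfa. The table also holds 1 row per gene, so that splice forms of Hif3a were not separated.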

How the data were processed

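RNA from E13.5 cortex was sequenced on the DNBSEQ platform in 6 libraries, 3 WT and 3 cKO. The authors deposited 1 table with estimated counts, FPKM and TPM per gene. The submitters' processing notes name HISAT2 2.2.1, Bowtie2 2.4.5, RSEM 1.3.1 and the GRCm38 (mm10) build without giving their roles, and a strand setting is not given in the sources used here. The columns headed Ctrl were taken as the WT libraries, the only other genotype in the labels. Of the deposited estimated counts 10.95% were not whole, and all were rounded to whole numbers. The TPM values deposited by the authors were used for levels per transcript length. FPKM and the authors' group averages, 12 columns, were not used.

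Genes were filtered with filterByExpr (edgeR 4.0.16, minimum count 10, minimum total 15), scaled by TMM, and tested with edgeR's quasi-likelihood test, two-sided, with Benjamini-Hochberg adjustment over 13340 genes and a threshold of 0.05. The series' design text speaks of several sequencing batches without assigning libraries to them, so no batch term was used. The total counts, 15907491 to 16282929, set the precision, and the common dispersion was 0.01688. The fit was also run on simulated counts with known changes, and no result here rests on that run. The alternatives were other scalings, filters, DESeq2, limma (log2(TPM + 1)), a replicate block, and libraries left out.

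The 10 genes, the pathway lists and the marker lists were chosen with earlier results of these data known. Named genes of the other lists were those called or, with none called, up to 4 with the lowest unadjusted p plus the 3 with the highest mean TPM. Ero1a, Insig2 and Lox were named after their values were seen. Likeness to Hif3a was Pearson's r of log2(CPM + 0.5), with the 5 highest named. Promoter windows came from RefSeq (GRCm38.p6), and gene positions and overlaps from a GENCODE annotation of GRCm38. Listed symbols that differed from the table (Ero1l, Figf) were matched through RefSeq synonyms to Ero1a and Vegfd.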

Additional observations from a re-analysis of the deposited data

How the results depend on the processing

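None of the 9 HIF genes chosen by role or of the other pathway genes was called under any of the 14 alternatives. The number of all genes called was 2 higher and 3 lower with DESeq2 (Sst, Uhmk1, Eef2, Dynlt1b and Ybx1), and 1 higher and 1 lower both with a replicate block (Sst and Ybx1) and without WT replicate 2 and cKO replicate 3 (Tmem269 and Ybx1); leaving out single libraries gave 0 to 1 in each direction, with the calls made without WT replicate 2. At an unadjusted p under 0.05 the counts were 390 higher with no filter, 477 higher and 613 lower with the block, 105 and 141 without WT replicate 2 and cKO replicate 3, and 121 to 571 higher and 118 to 482 lower with single libraries left out. Ybx1 passed at -3.00 (DESeq2, adjusted p 5.8e-10), -2.95 (block, edgeR adjusted p 0.0381), -3.49 (WT replicate 2 and cKO replicate 3 left out, edgeR adjusted p 0.0188) and -3.28 (without WT replicate 2, edgeR).

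Signs turned, on the log2 scale, for Arnt2 (0.0059) and Vhl (0.0031) with upper-quartile scaling, and for Vhl (0.054), Slc2a1 (-0.0030) and Vegfb (0.013) without WT replicate 2 and cKO replicate 3. Single libraries left out gave ranges that crossed 0 for Epas1 (-0.22 to 0.029), Arnt2 (-0.073 to 0.045), Egln3 (-0.059 to 0.29), Vhl (-0.048 to 0.065), Elob (-0.13 to 0.013), Eloc (-0.060 to 0.090), Ahrr (-0.38 to 0.074), Npas3 (-0.12 to 0.16), Gapdh (-0.012 to 0.23), Pkm (-0.058 to 0.11), Kdm3a (-0.013 to 0.10) and Vegfb (-0.19 to 0.021). Other log2 fold changes that 1 library moved by over 1.5 times included Hif1a (-0.12 to -0.0053), Vegfa (0.093 to 0.25), Bnip3 (0.14 to 0.32), Ep300 (-0.14 to -0.013), Cited2 (0.022 to 0.28), Npas1 (-0.89 to -0.16), Slc16a3 (0.33 to 0.76), Car12 (0.30 to 0.62), Fam162a (0.13 to 0.39), Vegfd (0.65 to 1.72) and Nrp1 (-0.28 to -0.017), and Ahrr was -0.33 without WT replicate 2 and cKO replicate 3. List medians ranged from -0.22 to 0.074 for the partners of Arnt, 0.033 to 0.21 for the glycolytic targets, 0.10 to 0.14 for the other HIF targets and -0.096 to 0.15 for VEGF ligands and receptors. The median of the other HIF targets was 0.093 with limma on TPM, and that of the VEGF list -0.13 without WT replicate 2 and cKO replicate 3. The cause of these shifts was not tested.

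WT and cKO libraries with the same replicate number deviated together for numbers 1 and 2 (r = 0.453 and 0.322) and not for number 3 (r = -0.0056), and both libraries of number 3 matched number 2 best, so the numbers were not taken as pairs. The 3 libraries a group limit what the main test can call, since even the large difference of Ybx1 did not pass it. Genes near 1 CPM, such as Ahr, Npas1 and Vegfd, rest on few counts.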
